A study of Mus musculus with 21 samples.

Results

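The genes described here encode the proteins of the cytosolic ribosome, measured as mRNA in 21 mouse heart libraries. Members were the genes whose symbols follow the Rpl, Rps and Rplp naming pattern, without the Rps6k kinases, and whose mean FPKM over all libraries was at least 0.5. FPKM is the read count per kilobase of exonic length, scaled to the library's total count. Of 56691 genes in the table, 93 matched the symbols and 88 passed the minimum. The 88 comprised 46 core genes of the large subunit, 30 core genes of the small subunit and 12 paralogs, copies or other genes with such a symbol. The 5 genes below the minimum were Rps12l1, Rpl10l, Rps23rg1, Rpl39l and Rpl32l. The member nearest to the minimum from above was Rpl21, with a mean FPKM of 0.774, and the nearest gene from below was Rpl32l, with 0.102.

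The study asked whether doxorubicin (DOX), an anthracycline used against cancer that damages the heart, changes the heart differently when a tumor is present. Control mice (5 libraries) carried no tumor and got normal saline without DOX, and DOX mice (5 libraries) got weekly intraperitoneal DOX. Tb mice (6 libraries) carried a subcutaneous tumor of 4T1 cells, a murine breast cancer line, and got normal saline. Tb-DOX mice (5 libraries) carried the tumor and got the same DOX. The tumors came from 1 cell line, and the strain, sex and age of the mice were not given in the sources used here. The labels name 4T-1 as the source of every library, while the study describes heart tissue. All 8 cardiomyocyte markers passed the minimum and summed to 11737 to 18553 FPKM per library.

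Each ribosome holds a single copy of most of its proteins, so the cell makes them in matched amounts. Their mRNAs typically begin with a pyrimidine-rich stretch, the 5′ terminal oligopyrimidine motif, through which the mTOR pathway adjusts their translation. Beyond building ribosomes, a few of these proteins act in stress signaling, since free Rpl5 and Rpl11 bind Mdm2 and thereby stabilize p53. Heart and skeletal muscle also make Rpl3l, a muscle-restricted paralog that takes the place of Rpl3 in part of their ribosomes.

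The sequences around the annotated start of transcription are shown for genes named below, because this is where the pyrimidine-rich motif lies. Each line gives 15 bases before and 15 bases from the start on, on the gene's strand, from RefSeq for GRCm38.p6, with the longest unbroken run of C or T in capitals. Lines 1 to 8 belong to core genes, and the remaining lines to a paralog.
Rpl5, chr5:107900513-107900542, plus strand: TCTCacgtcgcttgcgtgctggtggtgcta
Rpl7a, chr2:26910792-26910821, plus strand: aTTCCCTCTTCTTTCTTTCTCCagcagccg
Rpl11, chr4:136053379-136053408, minus strand: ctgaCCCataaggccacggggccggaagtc
Rpl24, chr16:55966260-55966289, plus strand: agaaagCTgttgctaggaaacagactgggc
Rps6, chr4:86857353-86857382, minus strand: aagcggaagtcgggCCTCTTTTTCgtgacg
Rps18, chr17:33955651-33955680, minus strand: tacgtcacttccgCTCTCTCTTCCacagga
Rps26, chr10:128626492-128626521, minus strand: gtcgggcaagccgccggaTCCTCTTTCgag
Rps27, chr3:90213634-90213663, minus strand: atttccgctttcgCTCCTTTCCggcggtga
Rps27rt, chr9:114982725-114982754, minus strand: agaacttaTCCCTTgctttccggcggtgac
Rpl22l1, chr3:28805493-28805522, plus strand: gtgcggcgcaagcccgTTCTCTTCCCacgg
Rpl3l, chr17:24727811-24727840, plus strand: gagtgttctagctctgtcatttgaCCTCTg

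Of the 88 members, 64 had such a sequence, with 76 annotated starts between them. A run of at least 8 C or T bases was found in 28 of the 76 windows, or 36.8%, against 12% of 32851 windows over all genes. Rpl7a had a run of 21, whereas Rpl24 had a run of 2 and Rpl3l, at the start shown, a run of 5. Of the members with a window, 14 of 31 that rose with DOX and 13 of 33 that were not called had at least 1 window with such a run. These are counts of letters at annotated starts, and no start of transcription was measured here.

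Levels differed widely between members. The mean FPKM ran from 0.774 for Rpl21, a large-subunit protein, to 422 for Rps15, a small-subunit protein, with a median of 63.8. At 100 FPKM or more stood 25 members, and 10 stood under 10 FPKM. Some low values go with reads on other copies. The table lists 309 pseudogenes named after members, of which 60 passed the minimum, and they held 6.34% of all reads of these families. In 4 families over 50% of the reads lay on pseudogenes: 93.0% for Rps2, 78.4% for Rps18, 64.4% for Rpl21 and 59.1% for Rps10. These families and Rps2-ps10 are named after their values were seen. Rps2-ps10 had a mean of 368 FPKM beside 15 for Rps2 itself. How the counting divided reads among near-identical copies is not given in the sources used here, so levels of these members are uncertain.

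Depth ranged from 13521200 to 18601445 counts per library. The 76 core genes took 0.865% to 1.46% of all counts, and genes of the mitochondrial genome took 14.6% to 28.9%. Control replicate 3 had the lowest mitochondrial share, 14.6%, and the highest core share of its group, 1.21%. DOX replicate 3 had the highest core share of all libraries, 1.46%, and a mitochondrial share of 21.3%. Cd3e, a T cell gene, reached 66.7 FPKM in DOX replicate 4 and 9.74 in Tb replicate 5, while the other 9 genes of the T cell list were at most 0.21 FPKM in the first and 1.36 in the second. These 4 libraries were therefore left out in pairs as a check, and the values stand beside the results they touch.

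DOX without a tumor was compared with Control first. Ribosomal protein mRNA was higher in DOX hearts: 43 of 88 members rose and 0 fell (edgeR quasi-likelihood test, Benjamini-Hochberg adjusted p under 0.05), and the median change was 23.9%, a log2 fold change of 0.31. Of all 13990 genes tested, 18% rose and 18.2% fell, and their median log2 fold change was 0.0024. Both subunits moved alike, with 24 of 46 large-subunit genes and 15 of 30 small-subunit genes called higher and medians of 0.31 and 0.31. Fold changes were above 0 for 84 of 88 members, against 50.2% of all genes, and no member was called with a log2 fold change of at least 1 in either direction, against 9.95% of all genes. An unadjusted p under 0.05 was found for 62, against 45.9% of all genes, and DESeq2 called 47 higher and 0 lower, against 19.5% and 19% of all genes. The values of the libraries did not overlap between the groups for 20 members, all of them higher with DOX, against 12% of all genes higher and 13.3% lower.

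The count depends on the scaling. TMM, the scaling used, holds the middle of all genes level between libraries. With library totals alone, the median of all genes moved to -0.14 in this comparison, 14 members were called higher and 2 lower, Rpl3l and Rps19bp1, against 10.1% and 25.2% of all genes, and the members' median was 0.17. Set against the median of all genes, the members stood 0.31 higher under both scalings. A scaling shifts all genes of a library alike, so this difference was nearly fixed beforehand and is no check of the rise. Of the genes named below, Rpl5, Rpl11, Rps6, Rps15, Rps4x, Rps26, Rpl22l1, Rpl23a, Rpl31, Rps3a2, Rpsa and Rack1 were not called with library totals. Rpl11, Rps26 and Rack1 were also not called without DOX replicate 3, Rpl11 not without Control replicate 5, and Rack1 not without Control replicate 2, 4 or 5. With DOX replicate 4 and Tb replicate 5 left out, 46 members were called higher, and with Control replicate 3 and DOX replicate 3 left out, 45.

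Single libraries showed how even this was. For each core gene the log2 difference from its mean over Control was taken, on TMM-scaled counts, and the median over the 76 genes was computed in every library. It was -0.14, -0.08, -0.01, 0.00 and 0.25 in Control and 0.08, 0.25, 0.28, 0.37 and 0.58 in DOX. The highest Control value belonged to replicate 3, and it lay at the level of the second lowest DOX library, so the groups overlapped. In Tb the median ran from -0.06 to 0.47 over 6 libraries, and in Tb-DOX from 0.09 to 0.33. The number of core genes above their Control mean was 6 to 68 of 76 in Control, 59 to 76 in DOX, 19 to 76 in Tb and 56 to 72 in Tb-DOX. Control replicate 3, at 68, lay above DOX replicate 1, at 59.

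**Figure D1:**
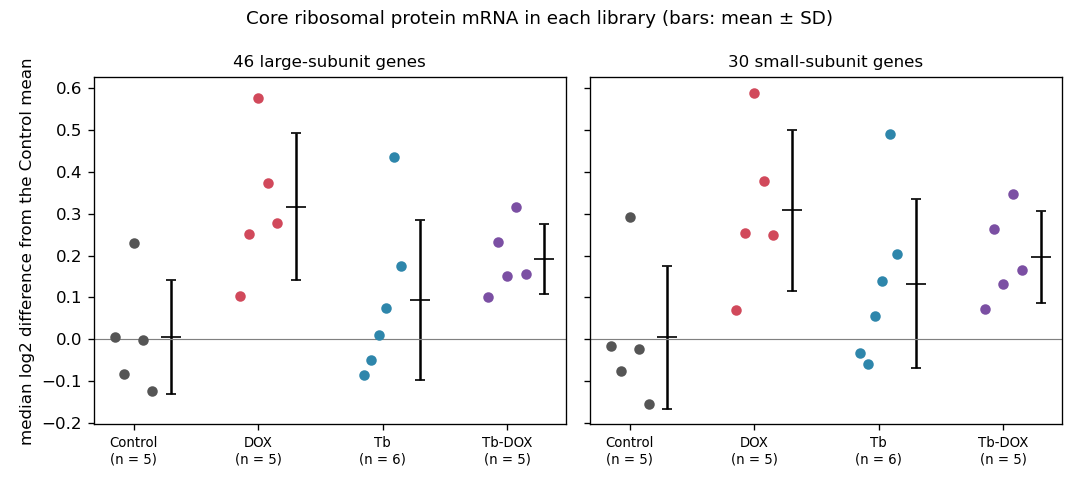
Median log2 difference from the Control mean (vertical axis) over the 46 large-subunit and the 30 small-subunit core genes in every library, by group, with points for libraries and bars for the mean and SD. DOX libraries lie mostly above Control, 1 Control library reaches into the DOX range, and Tb spreads widely up to Tb replicate 5.

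The largest rises belonged to copies and to a few core genes. Rps27rt, whose symbol marks it as a retrotransposed copy of Rps27, had normalized FPKM (FPKM with TMM scaling) of 9.66, 9.91, 13.0, 11.1 and 7.69 in Control and 12.8, 17.6, 28.7, 19.8 and 18.3 in DOX. Only DOX replicate 1 lay within the Control range. It rose by 0.92 ± 0.22 on the log2 scale (± SE, adjusted p = 0.0027). Rps4l, a copy of the small-subunit gene Rps4x, had 3.46 to 6.82 in Control and 5.12 to 13.6 in DOX, with overlapping groups. Its log2 fold change was 0.79 ± 0.23 (adjusted p = 0.012), beside 0.35 ± 0.11 (adjusted p = 0.016) for Rps4x, shown as its parent. Because a copy can share reads with its parent, the sizes of these 2 values are uncertain.

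Rps18, a protein of the head of the small subunit (chr17:34170973-34174975, minus strand, on GRCm39, the build of the table), had normalized FPKM of 3.47, 3.37, 3.90, 3.63 and 4.35 in Control and 4.58, 5.54, 7.77, 8.22 and 5.52 in DOX. All DOX libraries lay above all Control libraries. The log2 fold change was 0.75 ± 0.21 (adjusted p = 0.0071), and 0.43 ± 0.13 (adjusted p = 0.016) with the reads of its pseudogenes added. Rpl3, near the peptidyl transferase center of the large subunit (chr15:79961992-79976069, minus strand), had 24.3, 21.5, 21.5, 21.8 and 20.8 in Control and 30.8, 31.5, 38.4, 37.0 and 35.9 in DOX. The groups were separate, and the log2 fold change was 0.66 ± 0.13 (adjusted p = 0.00044). Pseudogenes held 31.6% of the reads of the Rpl3 family, and with them added the value was 0.68 ± 0.11.

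**Figure D2:**
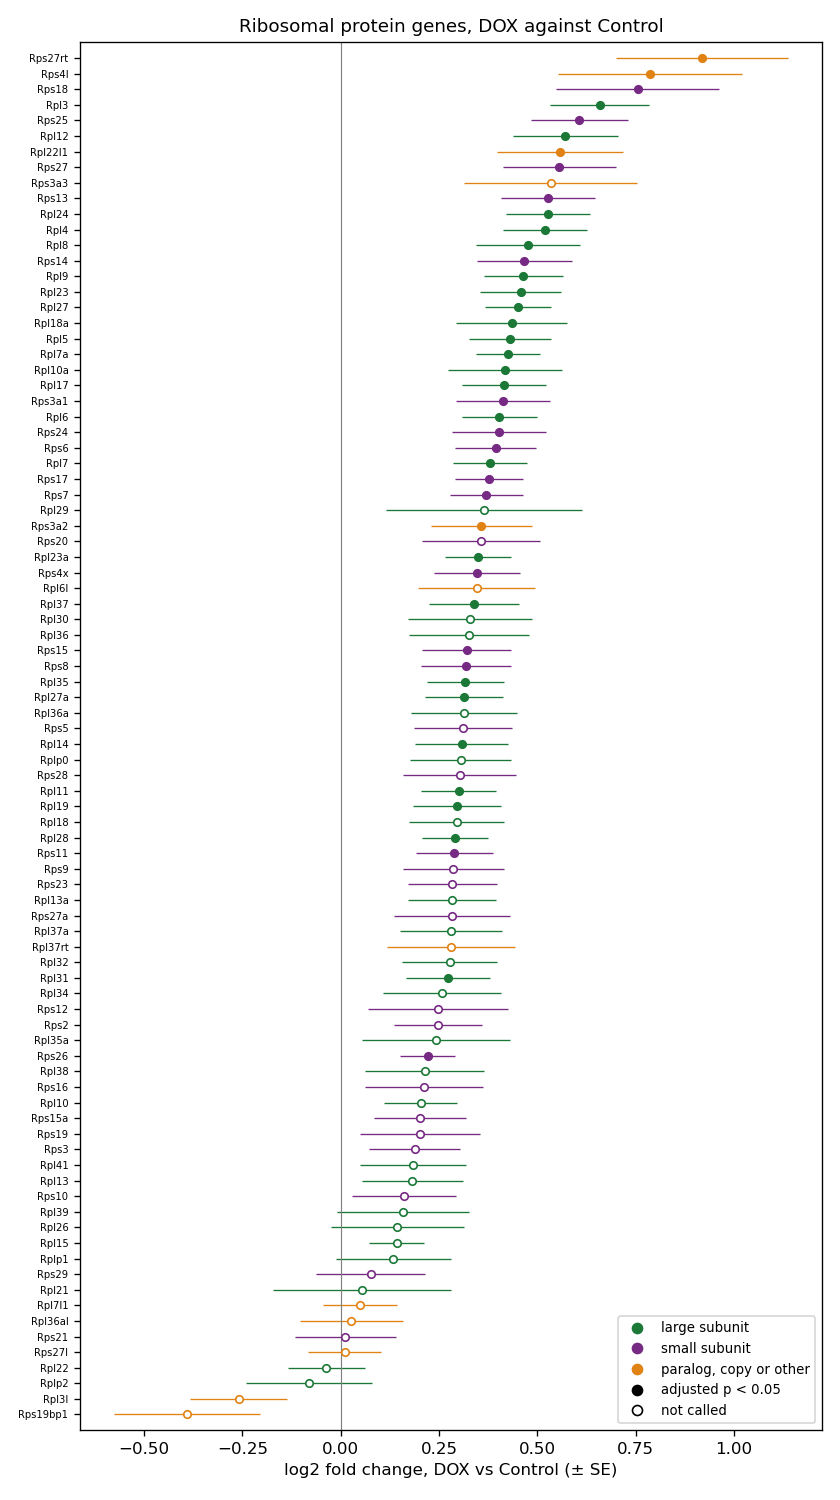
Log2 fold change of all 88 members in DOX against Control (horizontal axis, ± SE), ordered by size, with filled points for an adjusted p under 0.05 and colors for the large subunit, the small subunit and paralogs, copies or others. All 43 filled points lie to the right of 0, and the 4 points to its left, Rps19bp1, Rpl3l, Rplp2 and Rpl22, are open.

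Among members with roles outside the ribosome, Rpl5 and Rpl11, which bind Mdm2, rose by log2 fold changes of 0.43 ± 0.10 (adjusted p = 0.0030) and 0.30 ± 0.10 (adjusted p = 0.018). Rpl5 was at 53.7 to 68.1 normalized FPKM in Control and at 68.4 to 101 in DOX, with no overlap. Rps6, the substrate of the S6 kinases, rose by 0.39 ± 0.10 (adjusted p = 0.0056), from 134 to 166 in Control to 167 to 233 in DOX. Rps19, mutated in Diamond-Blackfan anemia, was at 9.37 to 15.2 in Control and 9.76 to 16.8 in DOX, and its difference of 0.20 ± 0.15 was not called (adjusted p = 0.31). Rps27a, made as a fusion with ubiquitin, was not called either (0.28 ± 0.15, adjusted p = 0.14).

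For the P-stalk, the protein arm that recruits elongation factors, the log2 fold change was 0.30 ± 0.13 for Rplp0 (adjusted p = 0.066), 0.13 ± 0.15 for Rplp1 (adjusted p = 0.50) and -0.08 ± 0.16 for Rplp2 (adjusted p = 0.73). None of these was called, and the sign for Rplp1 turned with library totals alone. Rplp0 was called higher under 5 of 36 alternatives, among them leaving out Control replicate 3, DOX replicate 1 or Tb replicate 5. Rplp2 was at 20.2 to 38.1 normalized FPKM in Control and at 22.8 to 30.5 in DOX, the highest Control value being that of replicate 3. At the ends of the range of levels, Rps15 had a log2 fold change of 0.32 ± 0.11 (adjusted p = 0.031), a call lost under 11 of 36 alternatives, among them library totals (0.18) and leaving out DOX replicate 3 (0.25), DOX replicate 4 (0.31) or Control replicate 1, 2, 4 or 5 (0.28 to 0.31). Rpl21 had 0.05 ± 0.23 (adjusted p = 0.88), and its sign also turned with library totals.

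Of the 12 paralogs, copies and others, 4 rose: Rps27rt, Rps4l, Rpl22l1 and Rps3a2. Rpl22l1, the paralog of Rpl22, had 11.7 to 15.6 normalized FPKM in Control and 16.5 to 25.8 in DOX, and rose by a log2 fold change of 0.56 ± 0.16 (adjusted p = 0.0098). Rpl22 itself had 31.7 to 40.2 in Control and 27.8 to 41.3 in DOX (-0.04 ± 0.10, adjusted p = 0.80). Rps27, a zinc finger protein of the small subunit, rose by 0.56 ± 0.14 (adjusted p = 0.0046), while its paralog Rps27l, known as a p53 target, had 0.01 ± 0.09 (adjusted p = 0.95). Rpl36al gave 0.03 ± 0.13, Rpl7l1, a relative of Rpl7, gave 0.05 ± 0.10 and Rpl37rt gave 0.28 ± 0.16, none of them called. With library totals alone the signs of Rps27l, Rpl36al and Rpl7l1 turned. The copies Rps3a2 and Rps3a3 of Rps3a1 had 0.36 ± 0.13 (adjusted p = 0.035) and 0.53 ± 0.22 (adjusted p = 0.061), and Rpl6l had 0.35 ± 0.15 (adjusted p = 0.073). Rps19bp1, a Rps19-binding protein that matches the symbols without being a ribosomal protein, had -0.39 ± 0.19 (adjusted p = 0.10).

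Rpl3l (chr17:24946794-24955117, plus strand) gave a value below 0, unlike Rpl3. Its normalized FPKM was 108, 105, 166, 112 and 104 in Control and 103, 98.6, 83.4, 100 and 111 in DOX. Control replicate 3 stood far above the other Control libraries, and the remaining ranges overlapped. The log2 fold change was -0.26 ± 0.12 (adjusted p = 0.10), and -0.10 ± 0.10 without Control replicate 3.

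A ratio of 2 genes within a library does not depend on the scaling between libraries, so each paralog was also set against its partner, as log2 of deposited FPKM plus 0.1. Over 3 pairs and 4 comparisons, 12 two-sided exact permutation tests were run. Rpl3l stood at 4.43 to 7.71 times the FPKM of Rpl3 in Control and at 2.17 to 3.33 times in DOX, without overlap. The log2 ratio was lower with DOX by 0.89 on average (2.40 ± 0.31 against 1.51 ± 0.25, SD, n = 5 each, exact permutation p = 0.0079, adjusted p = 0.048). That p is the smallest that 5 against 5 libraries allow. Rpl22l1 stood at 0.370 to 0.437 times Rpl22 in Control and at 0.474 to 0.665 times in DOX, again without overlap, a log2 difference of 0.58 (exact permutation p = 0.0079, adjusted p = 0.048). Rps27l stood at 0.651 to 0.891 times Rps27 in Control and at 0.403 to 0.690 times in DOX, with overlap (log2 difference -0.53, exact permutation p = 0.024, adjusted p = 0.095). The first and second results missed the threshold when any Control library was left out, at adjusted p of 0.063 to 0.095, with the differences still at -0.76 to -0.96 and at 0.56 to 0.62.

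**Figure D3:**
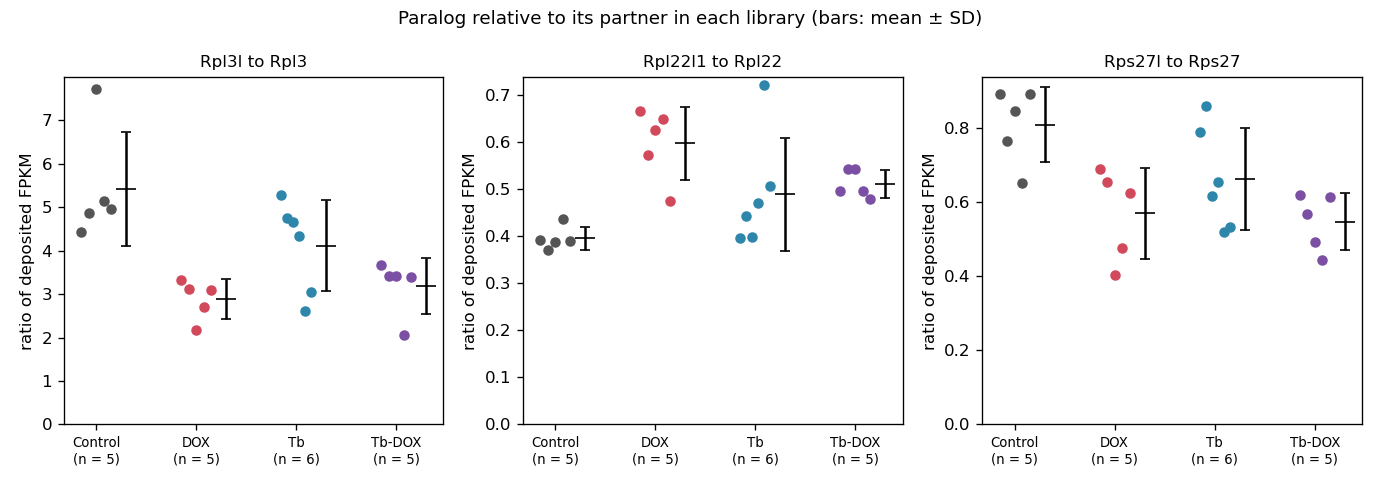
Ratio of the deposited FPKM of each paralog to that of its partner (vertical axis, from 0) in every library, by group, with points for libraries and bars for the mean and SD. DOX lies below Control without overlap for Rpl3l to Rpl3 and above it for Rpl22l1 to Rpl22, and Tb-DOX does not overlap Control for any of the 3 pairs.

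In the tumor groups these ratios gave no called difference. Rpl3l stood at 2.61 to 5.28 times Rpl3 in Tb and at 2.06 to 3.66 times in Tb-DOX (log2 difference -0.35, exact permutation p = 0.17, adjusted p = 0.22). Rpl22l1 stood at 0.396 to 0.720 times Rpl22 in Tb and at 0.478 to 0.542 times in Tb-DOX (0.09, exact permutation p = 0.58, adjusted p = 0.64). Between Tb and Control the log2 differences were -0.41 for Rpl3l, 0.27 for Rpl22l1 and -0.30 for Rps27l, at adjusted p of 0.13 to 0.21 in exact permutation tests. Whether the change of a ratio with DOX differs with and without a tumor was not tested.

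DOX in tumor-bearing mice was then compared with Tb. No member was called in edgeR, where 2.18% of all genes rose and 2.54% fell, and 8 members had an unadjusted p under 0.05, against 20.4% of all genes. DESeq2, which called 3.41% of all genes higher and 4.27% lower, and limma on log2 FPKM also called 0 members, whereas limma voom with sample quality weights called 15 higher and 1 lower, against 8.78% and 9.19% of all genes. The members' median log2 fold change was 0.06, beside -0.02 for all genes, and 61 of 88 were above 0, against 46.7% of all genes. Without Tb replicate 5 the median was 0.15 and 80 were above 0, and without Tb replicate 1 or 2 or Tb-DOX replicate 4 the median was 0.036, 0.035 and 0.034. The range was -0.29 to 0.48. Tb replicate 5 had the highest core median of its group, 0.47, and without it 2 members, Rpl3 and Rpl31, were called higher, the latter named after its value was seen. Rpl3 had 20.6, 21.9, 23.0, 24.0, 29.9 and 35.9 normalized FPKM in Tb, in rising order, and 27.7 to 36.6 in Tb-DOX. Its log2 fold change was 0.28 ± 0.12 (adjusted p = 0.18), and 0.40 ± 0.10 (adjusted p = 0.018) without Tb replicate 5. In the same comparison Rps27rt had 0.41 ± 0.21 and Rps4l 0.48 ± 0.22, at adjusted p of 0.28 and 0.23.

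**Figure D4:**
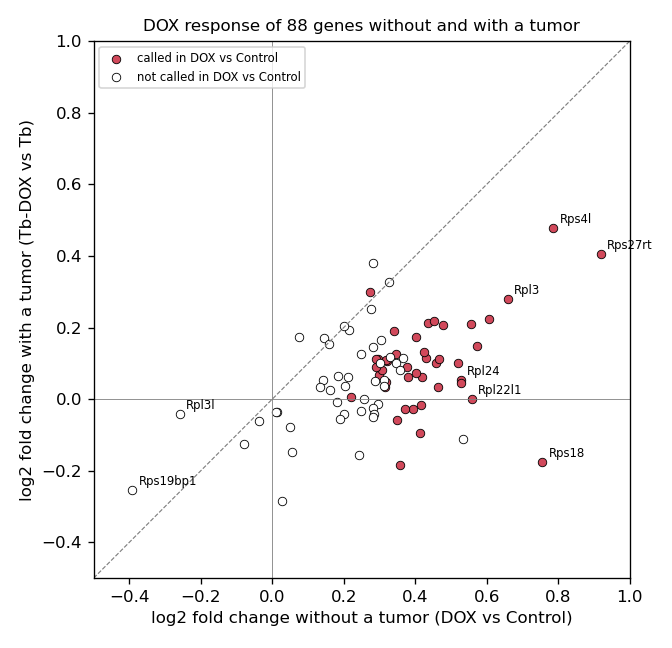
Log2 fold change with DOX in mice without a tumor (DOX against Control, horizontal axis) and with a tumor (Tb-DOX against Tb, vertical axis) for the 88 members, filled where called without a tumor, with a dashed line of equal change. Most points lie below the line, and 61 lie above 0 on both axes.

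These 2 comparisons share no library, and 80 of 88 members had the larger log2 fold change without a tumor. Over all 88 members the medians were 0.31 without a tumor and 0.06 with one. Of the 43 members called without a tumor, 36 were above 0 with one, against 46.7% of all genes, at a median of 0.10. Their median without a tumor, 0.41, is raised by their selection on that comparison, so the 2 medians of the 43 cannot be set against each other. The difference of the responses was tested for each gene as the interaction of tumor and DOX. It was called for 3 members, all lower with a tumor, against 5% of all genes called lower and 3.95% higher, so the members' share of 3 in 88 lay below the background. The members' median was -0.24, beside -0.0026 for all genes, 8 of 88 were above 0, against 49.7% of all genes, and 24 had an unadjusted p under 0.05, against 28.9%. DESeq2 called 11 lower, against 8.47% of all genes, and a fit with the replicate number as a block called 0.

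The 3 members were Rps18, Rpl24 and Rpl23a. Rps18 rose by 0.75 without a tumor and had -0.17 ± 0.20 with one, an interaction of -0.93 ± 0.29 (adjusted p = 0.045). In Tb its normalized FPKM was 3.44 to 5.02 except for 8.10 in replicate 5, and in Tb-DOX it was 3.69 to 5.12. With the reads of its pseudogenes added, the interaction was -0.56 ± 0.18 and no longer called (adjusted p = 0.057). Rpl24, a late-joining protein of the large subunit, was at 69.5 to 93.6 in Control, 95.1 to 137 in DOX, 86.2 to 121 in Tb and 92.2 to 106 in Tb-DOX. Its interaction was -0.47 ± 0.15 (adjusted p = 0.049). Rpl23a, beside the exit of the peptide tunnel, was at 192 to 228 in Control, 234 to 306 in DOX, 223 to 286 in Tb and 217 to 250 in Tb-DOX, with an interaction of -0.41 ± 0.12 (adjusted p = 0.035). In all 3 genes the DOX libraries lay above the Control libraries, while Tb and Tb-DOX overlapped.

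These calls lay near the threshold. With any 1 library left out the interaction was -1.03 to -0.71 for Rps18, -0.54 to -0.39 for Rpl24 and -0.46 to -0.36 for Rpl23a, while the number of calls varied. Without Control replicate 2, 4 or 5, DOX replicate 3 or Tb-DOX replicate 1 or 3, 0 members were called. Without Control replicate 1, DOX replicate 4, Tb replicate 6 or Tb-DOX replicate 2, 4 or 5, 1 was called. Without Control replicate 3, 4 were called, of which Rpl24 was the 1 shared with the 3 above, and without Tb replicate 5, 2, Rps18 and Rpl23a. Without Tb replicate 2, 7 were called, without DOX replicate 5, 9, without Tb replicate 1, 10, and without DOX replicate 1, 13. The shares of all genes called in these refits are not given here, so the counts show only how the calls vary. With DOX replicate 4 and Tb replicate 5 left out, or Control replicate 3 and DOX replicate 3, 0 were called, at medians of -0.16 and -0.26. With 1 library left out, the number of members above 0 ran from 4 (without Control replicate 4, DOX replicate 1, Tb replicate 3 or Tb-DOX replicate 4) to 15 (without Tb replicate 5).

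**Figure D5:**
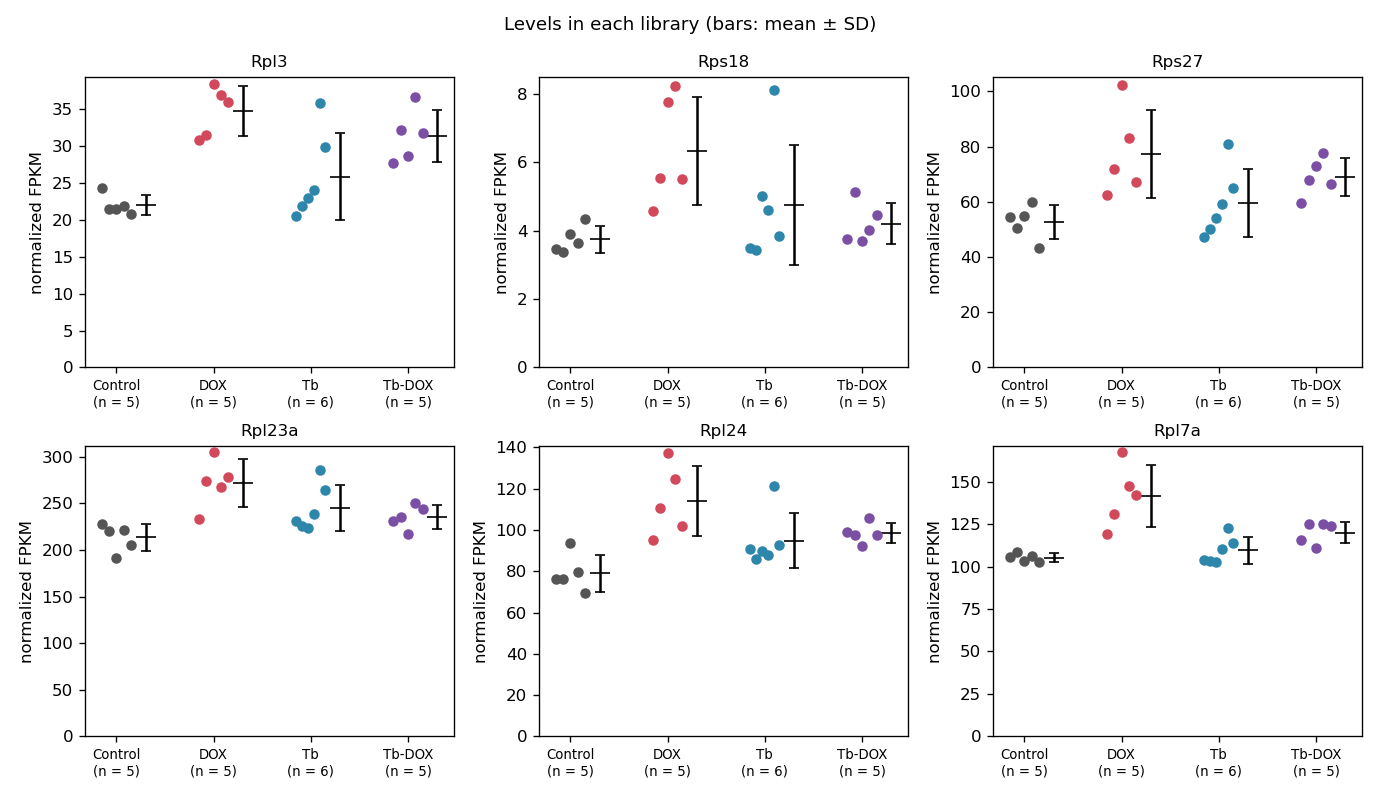
Normalized FPKM (vertical axis, from 0) of Rpl3, Rps18, Rps27, Rpl23a, Rpl24 and Rpl7a in every library, by group, with points for libraries and bars for the mean and SD. In each gene all DOX libraries lie above all Control libraries, and Tb replicate 5 is the highest library of its group.

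The tumor alone, Tb against Control, gave no called member in edgeR, DESeq2 or limma on log2 FPKM, where 5% of all genes rose and 1.29% fell. An unadjusted p under 0.05 was found for 10 members, against 20.5% of all genes, and voom with sample quality weights called 3 higher and 0 lower, against 6.2% and 4.18%. DESeq2 called 6.15% of all genes higher and 2.01% lower. The median log2 fold change was 0.11, beside -0.01 for all genes, and 73 of 88 were above 0, against 48.7% of all genes. Rpl3 had 0.23 ± 0.12 (adjusted p = 0.28) and Rpl3l -0.23 ± 0.12 (adjusted p = 0.27). Without Control replicate 3, 2 members were called higher, Rps3a2 and Rps9, both named after their values were seen. With Control replicate 3 and DOX replicate 3 left out, Rpl24 joined them. Without Tb replicate 5 the median was 0.033 with 56 members above 0, without Control replicate 5 it was 0.069, and without Control replicate 3 it was 0.19 with 76 above 0.

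Under DOX, Tb-DOX hearts were compared with DOX hearts. Rps26 and Rpl7a fell, 2 of 88 members against 7.93% of all genes called lower, and 0 rose, against 9.52%. DESeq2 called 4 lower, against 9.94% of all genes. The members' median was -0.15, beside -0.01 for all genes, and 10 of 88 were above 0, against 49.2% of all genes. Rps26, at the mRNA exit of the small subunit, was at 102, 102, 127, 111 and 107 normalized FPKM in DOX and at 93.5 to 96.6 in Tb-DOX, with no overlap, the 1 member of which this held for lower values, against 6.83% of all genes. It fell by 0.21 ± 0.07 on the log2 scale (adjusted p = 0.045). Rpl7a, a protein of the large subunit, was at 119, 131, 168, 147 and 142 in DOX and at 111 to 125 in Tb-DOX, where DOX replicate 1 overlapped, and fell by 0.24 ± 0.08 (adjusted p = 0.047). With library totals alone neither was called, and the members' median was 0.03 beside 0.18 for all genes.

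These calls, too, lay near the threshold. With any 1 library left out the log2 fold change was -0.23 to -0.15 for Rps26 and -0.29 to -0.17 for Rpl7a, and with a Control or Tb library left out, which enter this comparison only through the shared fit, it was -0.21 and -0.24. Both calls were lost without Control replicate 1, 2, 4 or 5, DOX replicate 3 or 4, Tb replicate 3, 4 or 6, or Tb-DOX replicate 1, 3 or 5, and 1 member was called without Tb replicate 1 or Tb-DOX replicate 2 or 4. Without DOX replicate 5, 4 members were called, without Tb replicate 5, 5, and without DOX replicate 1, 8. For these refits, too, the shares of all genes called are not given here. With Control replicate 3 and DOX replicate 3 left out, 0 were called and the median was -0.07. Without DOX replicate 3 alone the median was -0.069 with 21 members above 0, without Tb-DOX replicate 1 16 were above 0, and without DOX replicate 1 or Tb-DOX replicate 4, 6.

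Ribosomal genes outside the symbol pattern were read in the same comparison of DOX with Control. Rpsa, a small-subunit protein, was at 82.4 to 122 normalized FPKM in Control and 102 to 140 in DOX, and rose by 0.39 ± 0.12 on the log2 scale (adjusted p = 0.013). Rack1, a scaffold on the small subunit, was at 29.8 to 37.0 in Control and 32.6 to 50.5 in DOX, and rose by 0.32 ± 0.11 (adjusted p = 0.024). The groups overlapped for both genes. Fau, a ubiquitin-like fusion of a small-subunit protein, had 0.17 ± 0.19 (adjusted p = 0.48).

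The wider translation machinery was read from lists. Of 26 translation factors, 16 rose and 2 fell in DOX against Control, at a median of 0.32, where 18% of all genes rose and 18.2% fell. Naca, which binds nascent chains at the ribosome, rose by 0.48 ± 0.08 (adjusted p = 2.0e-04), from 64.3 to 81.8 normalized FPKM in Control to 86.8 to 113 in DOX. Eef1a2, the elongation factor of muscle and neurons, fell by 0.44 ± 0.14 (adjusted p = 0.021). In Tb-DOX against Tb 0 rose and 1 fell, where 2.54% of all genes fell, namely Eif4a2, an RNA helicase of initiation (-0.39 ± 0.11, adjusted p = 0.048). In Tb-DOX against DOX 6 factors fell, against 7.93% of all genes, and 0 rose, led by Eif3c, a subunit of initiation factor eIF3 (-0.32 ± 0.08, adjusted p = 0.012). The interaction was called, against 5% of all genes lower, for Eif4a1 alone among the 26 (-0.76 ± 0.23, adjusted p = 0.045).

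Of 60 ribosome biogenesis genes, 20 rose and 2 fell in DOX against Control, at a median of 0.27, against the same 18% and 18.2% of all genes. Riok2, a kinase of small-subunit maturation, rose by 0.58 ± 0.10 and Tcof1, a nucleolar factor of rRNA transcription, fell by 0.67 ± 0.12 (adjusted p = 2.4e-04 and 2.1e-04). In Tb-DOX against Tb 1 fell, against 2.54% of all genes, Heatr1 (-0.79 ± 0.23, adjusted p = 0.048), and the median was -0.17. The interaction was called for 10 of the 60, 9 lower and 1 higher, against 5% and 3.95% of all genes. Rrs1, an assembly factor of the large subunit, had -0.80 ± 0.18 (adjusted p = 0.015), with 7.88 to 10.7 in Control, 9.25 to 14.5 in DOX, 9.70 to 14.5 in Tb and 7.49 to 9.83 in Tb-DOX. Tcof1 was the gene called higher, at 0.89 ± 0.16 (adjusted p = 0.0077). In Tb-DOX against DOX 2 of the 60 rose and 5 fell, against 9.52% and 7.93% of all genes, with Tcof1 at 0.69 ± 0.12 and Riok2 at -0.43 ± 0.10 (adjusted p = 3.9e-04 and 0.0058). In Tb against Control, Myc was the 1 gene of the 60 called (2.68 ± 0.70, adjusted p = 0.022), where 5% of all genes rose. It was at 0.416 to 1.75 in Control and 1.11 to 24.6 in Tb, with overlap. Its mean in Tb was 5.97 with an SD of 9.16, so the size of this value depends on the highest library.

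Of 21 regulators of mTOR and of oligopyrimidine mRNAs, 8 rose and 4 fell in DOX against Control, the latter near the 18.2% of all genes that fell, while 18% rose. Eif4e, the cap-binding factor, fell by 1.01 ± 0.13 without a tumor (adjusted p = 1.1e-05) and by 0.64 ± 0.12 with one (adjusted p = 0.0050). Its normalized FPKM was 29.7 to 35.8 in Control, 14.3 to 21.5 in DOX, 22.0 to 36.9 in Tb and 18.1 to 22.7 in Tb-DOX. Rheb, the GTPase that activates mTORC1, rose by 0.42 ± 0.08 without a tumor (adjusted p = 4.6e-04), from 9.93 to 11.2 to 13.4 to 15.2, and its interaction was -0.40 ± 0.11 (adjusted p = 0.031). Mtor, the kinase itself, was at 4.92 to 6.27 in Control, 6.22 to 7.60 in DOX, 3.59 to 5.15 in Tb and 6.43 to 7.17 in Tb-DOX. It fell by 0.30 ± 0.09 in Tb against Control (adjusted p = 0.044) and rose by 0.54 ± 0.09 in Tb-DOX against Tb (adjusted p = 0.0019). Of 12 p53 targets, 2 rose and 1 fell in DOX against Control, shares no higher than the 18% and 18.2% of all genes. Trp53inp1, a p53-induced stress gene, rose by 2.18 ± 0.46 (adjusted p = 0.0011) and Ccng1, cyclin G1, fell by 0.58 ± 0.19 (adjusted p = 0.021). Trp53inp1 was also higher in Tb against Control (1.60 ± 0.44, adjusted p = 0.032), at 3.17 to 4.64 and 4.02 to 33.9 with overlap, and its interaction was -2.25 ± 0.62 (adjusted p = 0.031).

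Ribosomal proteins of the mitochondrion, encoded by separate nuclear genes, were read as well. Of 78 tested, 5 rose and 16 fell in DOX against Control, at a median of -0.12, where 18% of all genes rose and 18.2% fell, so the share that fell was near the background. Mrps23 rose by 0.37 ± 0.09 (adjusted p = 0.0039) and Mrps6 fell by 0.80 ± 0.15 (adjusted p = 2.9e-04). Of 99 genes of the respiratory chain and ATP synthase, 15 rose and 10 fell, both below those shares of all genes, at a median of 0.05, with Atp5c1 higher by 0.43 ± 0.07 (adjusted p = 1.6e-04) and Cox7a1 lower by 0.65 ± 0.17 (adjusted p = 0.0050). The cytosolic members are short, with a median exonic length of 1722.5 bases against 3840 for all genes. In genes that are no members, the median log2 fold change was 0.13 under 1000 bases and -0.04 between 1000 and 2000, where the members' medians were 0.31 and 0.31.

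Markers of cell types were compared between the same groups, and calls are for DOX against Control, where 36.2% of all genes were called. The summed FPKM of 7 fibroblast markers was 230 to 291 in Control and 141 to 244 in DOX, with 1 of 7 called higher and 5 lower. The 5 erythroid markers summed to 252 to 1093 in Control and 4.77 to 146 in DOX, with all 5 called lower, and to 527 to 975 in Tb and 2.96 to 40.0 in Tb-DOX. The 8 cardiomyocyte markers summed to 13060 to 18553 in Control and 15780 to 18480 in DOX, with 3 of 8 called higher. The 5 genes of the skeletal muscle list, Acta1, Myh4, Myh1, Ckm and Tnni2, summed to 1869 to 2852 in Control and 614 to 1255 in DOX. Of these, 1 of 4 tested was called lower. The part of each gene in this sum is not given, so it is not read as an amount of skeletal muscle. The 6 endothelial markers summed to 264 to 307 in Control and 172 to 236 in DOX, with 1 of 6 called lower. The 5 macrophage markers summed to 32.1 to 48.2 in Control and 16.3 to 30.8 in DOX, with 3 of 5 called lower. The 6 neutrophil markers summed to 1.03 to 4.29 in Control, 7.80 to 83.8 in DOX, 801 to 7494 in Tb and 1198 to 5938 in Tb-DOX, with 3 of 5 tested called higher. In such bulk samples fewer cells of a type and less RNA per cell cannot be told apart, and the part of these shifts in the values of the ribosomal protein genes was not tested.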

How the data were processed

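Total RNA of heart tissue was made into mRNA libraries and sequenced. Per the labels, mRNA was enriched with oligo(dT) beads or by rRNA depletion, and the study's methods name the beads. The submitters' processing notes name cutadapt, FastQC, HISAT2, HTSeq 0.6.1, DESeq2 1.34.0 and GRCm39, without their roles. The authors deposited whole-number counts and FPKM for each gene in each library, and 100% of the FPKM values equal the count divided by exonic length and library total, within 0.0051. Fold changes and p-values of the authors were not used.

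Groups came from the labels. Nothing says that replicates are separate mice, so p-values measure the spread between these libraries, which may be technical. Counts were tested with edgeR 4.0.16 (R 4.3.3) on the 13990 genes whose mean FPKM reached 0.5, with TMM scaling, 1 coefficient per group and all 21 libraries in 1 fit. Genes were called at a Benjamini-Hochberg adjusted p under 0.05, with no minimum fold change. SEs were derived from the F statistics. The test was tried on simulated data. The members and lists were chosen with earlier results of these data known. Genes were named by a rule: paralogs and partners, other genes with a ribosomal symbol, Rpsa, Fau and Rack1, the P-stalk, Rpl5, Rpl11, Rps6, Rps19, Rps27a, the most and least abundant member, the 3 largest called changes per comparison and direction, and of each list the called gene with the smallest adjusted p per comparison and direction, and the members beside the minimum. Not every gene of this rule is described. The mitochondrial ribosomal and respiratory chain lists are described in DOX against Control only, and the mTOR list is not described in Tb-DOX against DOX. Of 4 planned paralog pairs, the 1 with Rpl39l was dropped because Rpl39l was under the minimum. Same-numbered libraries correlated in their residuals at -0.273 to 0.243, with 5 of 30 pairs over 0.1, so no pairing was used. Replicates differed by more than counting error (chi-square per degree of freedom at least 5.33). Alternatives were other scalings, filters, tools and thresholds, a length offset, a replicate block and each library left out. Shares of all genes called are given for some of these fits only. Added after seeing the data were pseudogene reads summed into the parent and 2 pairs of libraries left out. An item that the rule also covers is not reported here.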

Additional observations from a re-analysis of the deposited data

Results flagged for a closer look

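In groups of 4 to 10 libraries, 148 sets of values were searched for a highest or lowest library far from the others by Dixon's criterion, and 24 met it, where chance alone gives about 1 in 20. Most lay in Tb replicate 5 and Control replicate 3, each the highest of its group. Levels are normalized FPKM.

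In Tb replicate 5, Rplp1 was at 313 (other libraries 174 to 219), Rpsa at 128 (90.6 to 103), Rpl24 at 121 (86.2 to 92.8), Rps27a at 119 (67.9 to 83.3), Rplp0 at 113 (69.7 to 83.9) and Rps26 at 108 (88.1 to 94.5). Rpl36al stood at 30.4 there (21.5 to 24.5), Rpl22l1 at 25.6 (13.4 to 17.7), Rpl7l1 at 16.9 (11.8 to 13.0), Rps18 at 8.10 (3.44 to 5.02) and Rpl21 at 1.26 (0.580 to 0.752). The ratio of Rpl22l1 to Rpl22 was 0.720 in this library and 0.396 to 0.506 in the other Tb libraries.

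In Control replicate 3, Rps15 was at 500 (499.7, other libraries 339.6 to 372.3), Rpl3l at 166 (103 to 112), Rpsa at 122 (82.4 to 88.2), Rplp0 at 91.6 (66.3 to 73.1), Rpl36al at 27.5 (19.7 to 21.7) and Rps19 at 15.2 (9.37 to 10.4). The ratio of Rpl3l to Rpl3 was 7.71 there, and 4.43 to 5.14 in the other Control libraries.

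Elsewhere, Fau was at 73.9 in DOX replicate 3 (47.1 to 51.2), Rpl11 at 56.6 in Tb-DOX replicate 4 (45.2 to 47.8), Rpl3 at 24.3 in Control replicate 1 (20.8 to 21.8) and Rpl21 at 0.593 in DOX replicate 2, the lowest of its group (0.901 to 0.975). The ratio of Rpl3l to Rpl3 was 2.06 in Tb-DOX replicate 4, below 3.39 to 3.66 in the others.

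By the interaction term of edgeR, the response to DOX was called lower with a tumor for Rps18 (-0.93), Rpl24 (-0.47) and Rpl23a (-0.41). These were 3 of 88 members, against 5% of all genes called lower. The calls were lost under 20 of 34 alternatives for Rps18, 23 of 35 for Rpl24 and 17 of 35 for Rpl23a.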

How the results depend on the processing

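Counts in this section are of members. For most settings the share of all genes called is not given, so these counts show only how the calls vary. In DOX against Control, 0 members fell and 43 rose. With library totals alone 14 rose and 2 fell, with limma on log2(FPKM + 0.1) 12 and 2, and with limma on log2(FPKM + 1) 13 and 2. With a minimum of 5 FPKM 1 fell, at an adjusted p under 0.01 25 rose, and with a log2 change of 1 or more also required 0 rose. The other settings gave 35 to 56 higher. Leaving out 1 library gave 30 (without DOX replicate 3) to 56 (without Control replicate 3).

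In Tb-DOX against Tb, voom called 15 higher and 1 lower, and 2 were higher without DOX replicate 4 and Tb replicate 5. With 1 library left out the range was 0 to 2. In Tb against Control, voom called 3 higher, as did leaving out Control replicate 3 and DOX replicate 3, and with 1 library left out 0 to 2.

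In Tb-DOX against DOX, 2 members fell. DESeq2 gave 4, the length offset 7, only the compared groups 1, and 0 came from library totals, no filter, a minimum of 5 FPKM, both limma fits on FPKM, both stricter thresholds and leaving out Control replicate 3 with DOX replicate 3. The median turned to 0.033 with library totals, 0.044 with limma at 0.1 and 0.043 with limma at 1. With 1 library left out, 0 to 8 fell. For the interaction, 3 members were lower. RLE scaling gave 5, TMM from other genes 5, DESeq2 11, voom 8, the length offset 11, no filter 1, and 0 came from library totals, a minimum of 5 FPKM, both limma fits on FPKM, both stricter thresholds and either pair of libraries left out. With 1 library left out, 0 to 13 were lower.

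Replicate numbers did not pair the libraries. With the replicate block 42 members rose in DOX against Control, 0 fell in Tb-DOX against DOX and 0 were lower in the interaction, where Rps18 had -0.93 (adjusted p = 0.058, edgeR).

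Signs turned for genes near 0. In DOX against Control, library totals gave -0.13 for Rps27l, -0.11 for Rpl36al, -0.087 for Rpl21, -0.085 for Rpl7l1 and -0.0083 for Rplp1. Limma at 0.1 gave -0.12 for Rps27l, -0.13 for Rpl36al, -0.072 for Rpl21 and -0.090 for Rpl7l1, and limma at 1 gave -0.12, -0.12, -0.035 and -0.083. A minimum of 5 FPKM gave -0.036 for Rps27l and -0.018 for Rpl36al, and voom -0.039 for Rpl36al. The length offset gave 0.033 for Rpl22, 0.0027 for Rplp2 and -0.014 for Rps27l. Without Control replicate 3 and DOX replicate 3, Rplp2 had 0.0099 and Rpl36al -0.016. In Tb-DOX against Tb, Rpl22l1 had -0.0080 with RLE and DESeq2, -0.0078 with TMM from other genes, -0.0065 without a filter and -0.017 with the length offset, and Rps18 had 0.044 without DOX replicate 4 and Tb replicate 5.

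Leaving out 1 library gave, in DOX against Control, -0.010 to 0.16 for Rpl21, -0.11 to 0.028 for Rpl22, -0.10 to 0.12 for Rpl36al, -0.17 to 0.067 for Rplp2 and -0.032 to 0.066 for Rps27l. In Tb-DOX against Tb it gave -0.060 to 0.16 for Rpl22l1, -0.084 to 0.047 for Rpl3l and -0.25 to 0.048 for Rps18. The log2 ratio of Rpl3l to Rpl3 in DOX against Control ran from -0.96 to -0.76 and that of Rpl22l1 to Rpl22 from 0.54 to 0.67. In Tb-DOX against DOX, Rpl22l1 to Rpl22 ran from -0.30 to -0.18 and Rps27l to Rps27 from -0.16 to 0.038. Where the library left out or the setting changes a call, the cause was not tested. Rpl21 had 863 reads over all libraries, and 64.4% of the reads of its family lay on pseudogenes.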
